A study of Arabidopsis thaliana with 18 samples.

Results

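The transcript response of Arabidopsis thaliana seedlings to 2 h of warmth was compared between the mutant arp6-10 and the wild type Col-0. The comparison uses 12 of the 18 Affymetrix arrays of the series, chosen by genotype and time alone. They are 4 of arp6-10 after 2 h at 27 °C, 4 of arp6-10 at 12 °C, 2 of Col-0 after 2 h at 27 °C and 2 of Col-0 at 12 °C. Every array holds RNA of whole seedlings labelled 8 days old, grown from seed held at 4 °C for 48 h on plates without sugar, first at 20 °C and then kept for 3 days at 12 °C in continuous light and frozen either before the shift to 27 °C or 2 h after it. The 6 remaining arrays, taken 24 h after the shift, enter only where named. Nothing in the labels says that the arrays of a group hold seedlings of separate cultures. The p-values therefore cover only how far these samples vary, and that variation may be technical. No group stayed at 12 °C for the extra 2 h, so warmth and elapsed time cannot be told apart. In whole seedlings, fewer cells of a type and less RNA per cell cannot be told apart either.

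ARP6 is an actin-related protein and belongs to SWR1, a remodelling complex that swaps H2A for the variant H2A.Z in nucleosomes. Plants without ARP6 carry less H2A.Z in their chromatin, and H2A.Z has been studied as part of how plants sense ambient temperature. Warming induces chaperones such as the small heat shock proteins, which hold unfolding proteins in solution, while cold-regulated and anthocyanin genes are typical of cool light. ARP6 itself has no named probe set here, and the mutation was not analysed on these arrays.

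Levels are log2(signal + 16) after quantile normalization, a scale that cannot go under 4. A group mean under 5 is not shown to be above background, and a fold from it depends on the added 16. The response of a genotype is its level at 2 h minus its level at 12 °C, and the genotype gap is arp6-10 minus Col-0 at 1 time. The difference of responses is the arp6-10 response minus the Col-0 response, which equals the gap at 2 h minus the gap at 12 °C. A probe set is called where limma's Benjamini-Hochberg adjusted p is under 0.05 over all 15922 tested.

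An array of arp6-10 at 12 °C and another of arp6-10 at 24 h stood apart from their labels. On an axis of all probe sets running between the other arp6-10 arrays of 12 °C (near 0) and of 24 h (near 1), replicate 3 of arp6-10 at 12 °C lay at 0.956, and the other 3 of its group lay between 0.0799 and 0.143. Replicate 2 of arp6-10 at 24 h lay at -0.0357. The 4 arrays of arp6-10 at 2 h lay between 0.502 and 0.634, the 2 of Col-0 at 2 h at 0.738 and 0.748, and the 2 of Col-0 at 12 °C at 0.256 and 0.319. Results are therefore given on the 12 arrays as labelled and on the 11 without replicate 3 of arp6-10 at 12 °C. Medians of the deposited values, as log2(signal + 16), were 6.49 to 6.53 in arp6-10 at 2 h, 6.52 to 6.71 in arp6-10 at 12 °C, 6.34 to 6.41 in Col-0 at 2 h and 6.27 to 6.39 in Col-0 at 12 °C. The root markers PYK10, NAI2 and EXPA7 were detected in every group, none of the 3 was called for a difference of responses, and no seed storage gene had a tested probe set.

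The transcripts whose 2 h response differed between the genotypes were mostly ones that were low in Col-0 at 12 °C. In Col-0 they rose within 2 h of warmth, whereas in arp6-10 they already stood high at 12 °C, where most had no called response and a few fell. They included the dehydrin AT1G54410, the DNA polymerase delta subunit POLD3, the SNF2-family remodeller CHR24 and the PHD-finger protein OBE1. On the 12 arrays, 28 of 15922 probe sets were called, 0.176%, of which 25 had a negative difference (0.157%) and 3 a positive one (0.0188%). Unadjusted p was under 0.05 for 2297 probe sets, 977 positive and 1320 negative. With replicate 3 of arp6-10 at 12 °C left out, 189 were called (1.19%), 151 negative (0.948%) and 38 positive (0.239%), and all 28 were among them with the same sign. Leaving out another array moved these counts by more than 1.5 times in most cases. As labelled, 1 call was made without replicate 1 of Col-0 at 12 °C, 102 without its replicate 2, 2 and 4 without replicate 1 or 2 of Col-0 at 2 h, and 0 without replicate 2 of arp6-10 at 12 °C, where 2023 had an unadjusted p under 0.05. Leaving out replicates 1 to 4 of arp6-10 at 2 h gave 2, 0, 0 and 0 calls, with 2200, 2088, 1879 and 1826 at an unadjusted p under 0.05. In every one of these fits all 28 kept their sign, but each fit shares all but 1 of the arrays that chose the 28. A kept sign is therefore not separate support.

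The 25 called negative had a median difference of -1.85. Their median response was -0.28 in arp6-10 and 1.52 in Col-0. Median levels were 7.46 in arp6-10 at 2 h, 8.14 in arp6-10 at 12 °C, 6.93 in Col-0 at 2 h and 5.94 in Col-0 at 12 °C, so Col-0 at 12 °C was the low group. The median gap was 0.37 at 2 h and 2.21 at 12 °C. The gap was called at 2 h in 8 of the 25, all positive (9.01% of all tested were called, 5.04% positive), and at 12 °C in 25 of 25 (32.4%, 17.5% positive). The response was called in 4 of the 25 in arp6-10 (4.84% of all tested) and in 24 of the 25 in Col-0 (8.44%). Both Col-0 arrays of 12 °C lay below the other 10 arrays for 25 of the 25, against 12.5% of all probe sets tested. The 4 arrays of arp6-10 at 12 °C lay above the other 8 for 6 of the 25, against 2.54%. Of the 25, 8 had a Col-0 mean under 5 at 12 °C, and no other group had any. These values come from the contrast that chose the 25 and are given as a description. Of the 3 root markers, NAI2, of endoplasmic reticulum bodies, was the only one with a called gap at 12 °C, where 32.4% of all tested were called. NAI2 had 10.07, 10.07, 10.56 and 9.37 in arp6-10 at 12 °C, against 9.07 and 8.96 in Col-0 at 12 °C (adjusted p = 0.00836). At 2 h NAI2 had 9.91 to 10.33 in arp6-10, against 9.60 and 9.47 in Col-0, a gap called without replicate 3 of arp6-10 at 12 °C (0.62, adjusted p = 0.0386). The gaps of PYK10 and EXPA7 were not called at either time. EXPA7 went the other way at 12 °C, with 6.87, 6.47, 6.18 and 6.54 in arp6-10, against 6.98 and 6.99 in Col-0. The part of root tissue in the result was not tested.

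**Figure D1:**
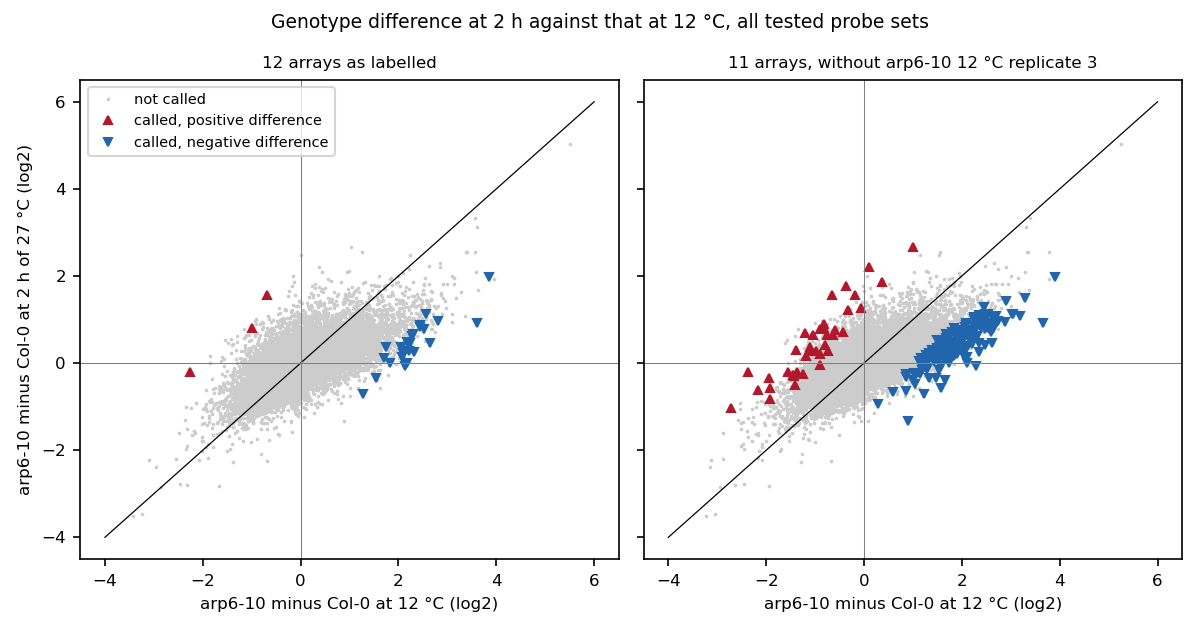
Genotype gap (arp6-10 minus Col-0, log2) at 2 h of 27 °C on the y axis against the gap at 12 °C on the x axis, one point for each of 15922 probe sets, on the 12 arrays (left) and without arp6-10 12 °C replicate 3 (right). Points on the diagonal have equal responses, and most called ones lie to the right below it, where the gap is large at 12 °C and smaller at 2 h.

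A single group was taken to carry a difference where the smaller response and the smaller gap were each under 0.5 of the larger in size. This class uses the group means that also gave the calls, so the shares describe the called probe sets and test nothing. A Col-0 mean rests on 2 arrays and an arp6-10 mean on 4, or on 3 at 12 °C without replicate 3. By this description Col-0 at 12 °C carried 19 of the 25 negative differences, 76%, against 23.7% of all tested probe sets with a negative difference, and 6 had no single group. Col-0 at 2 h and Col-0 at 12 °C carried 1 each of the 3 positive ones, and the last had no single group. Among all tested with a positive difference the shares were 8.97%, 18.5% and 62.9%. Without replicate 3 of arp6-10 at 12 °C, Col-0 at 12 °C carried 115 of 151 negative differences (76.2%, against 21.4% of all tested). Another 6 were carried by arp6-10 at 12 °C (3.97%, against 7.08%), 1 by Col-0 at 2 h (0.662%, against 6.27%), and 29 by no single group (19.2%, against 62.2%). Of the 38 positive differences, arp6-10 at 12 °C carried 10 (26.3%, against 8.21% of all tested with a positive difference). Col-0 at 12 °C carried 4 (10.5%, against 15.5%) and Col-0 at 2 h carried 3 (7.89%, against 7.68%). The other 21 had no single group (55.3%, against 65.7%). No called difference was carried by arp6-10 at 2 h alone in either fit. That group was also rare among all tested, at 2.63% of negative and 3% of positive differences as labelled. Without replicate 3 of arp6-10 at 12 °C the shares were 3.02% and 2.97%. On the values as deposited, with the same called probe sets, Col-0 at 12 °C carried 19 of the 25 and 113 of the 151, and arp6-10 at 2 h carried 1 of the 38.

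**Figure D2:**
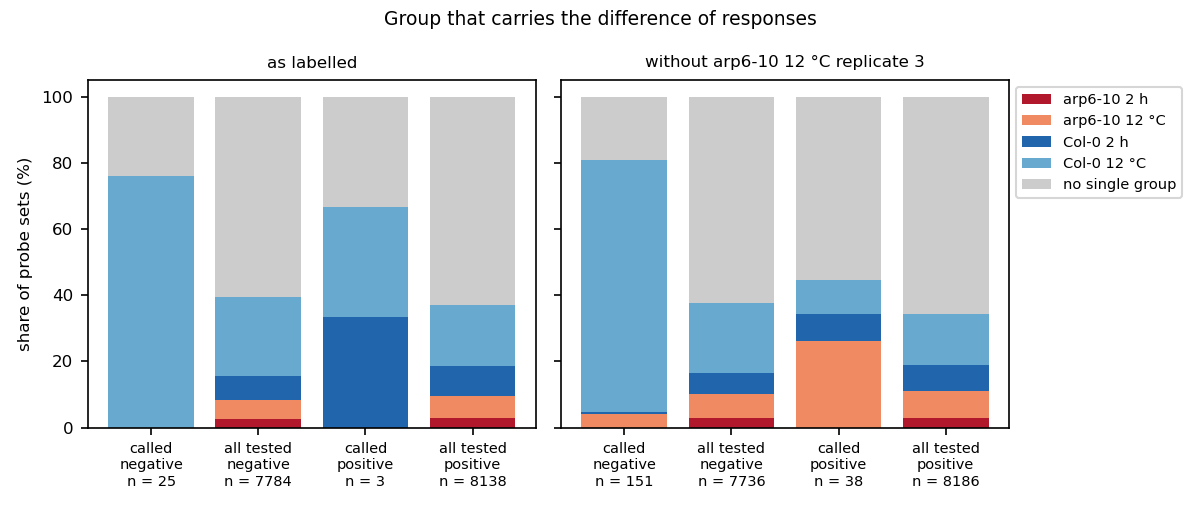
Share of probe sets (%, y axis) whose difference of responses is carried by each of the 4 groups or by no single group, for called and for all tested probe sets of each sign, as labelled (left) and without arp6-10 12 °C replicate 3 (right). Col-0 at 12 °C takes 76% and 76.2% of the called negative bars.

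The largest called negative difference among named genes was that of AT1G54410, which encodes the small histidine-rich dehydrin HIRD11; dehydrins are hydrophilic proteins that build up under cold and drought. Its levels were 12.11, 11.98, 11.20 and 11.16 in arp6-10 at 2 h, 12.58, 12.67, 12.27 and 12.02 in arp6-10 at 12 °C, 10.83 and 10.56 in Col-0 at 2 h, and 8.58 and 8.97 in Col-0 at 12 °C. Both Col-0 arrays of 12 °C lay apart at the low end, and all arp6-10 arrays lay above all Col-0 arrays. The gap was 1.89-fold at 2 h and 12.2-fold at 12 °C. The difference of responses was -2.69 ± 0.39 (SE, adjusted p = 0.0277), made of a Col-0 rise of 1.92 ± 0.32 and an arp6-10 response of -0.77 ± 0.23 that was not called as labelled (adjusted p = 0.0685). Left without replicate 3 of arp6-10 at 12 °C, it was -2.73 ± 0.38 (adjusted p = 0.00722). AT1G54410 was called in 5 of the 12 fits that leave out 1 array, with differences of -2.89 to -2.50 and adjusted p of up to 0.119.

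POLD3 and CHR24 had the same low group at lower levels. POLD3, a subunit of the replicative DNA polymerase delta, had levels of 5.82, 6.02, 5.83 and 5.99 in arp6-10 at 2 h and 6.96, 6.86, 6.61 and 6.40 in arp6-10 at 12 °C, against 5.67 and 5.66 in Col-0 at 2 h and 4.64 and 4.12 in Col-0 at 12 °C. The 4 groups did not overlap, and Col-0 at 12 °C lay near the floor of the scale. POLD3 fell by 0.79 ± 0.18 on the log2 scale in arp6-10 (adjusted p = 0.0273) and rose by 1.28 ± 0.26 in Col-0 (adjusted p = 0.0119), a difference of -2.07 ± 0.32 (adjusted p = 0.0292). CHR24, an ATPase of the SNF2 family of chromatin remodellers, had 6.14, 5.90, 5.85 and 6.07 in arp6-10 at 2 h, 6.55, 6.13, 6.50 and 6.11 in arp6-10 at 12 °C, 5.78 and 5.72 in Col-0 at 2 h, and 4.39 and 4.08 in Col-0 at 12 °C. The 2 arrays of Col-0 at 12 °C stood far below the rest. Those of Col-0 at 2 h lay just under every arp6-10 array, and the 2 arp6-10 groups overlapped. Its difference was -1.85 ± 0.31 (adjusted p = 0.039), and CHR24 was called in 3 of the 12 fits that leave out 1 array. With a Col-0 mean of 4.24 at 12 °C its size depends on the pseudocount, running from -3.94 to -0.81 over all settings.

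OBE1, a PHD-finger protein needed for embryo and meristem patterning, had levels of 6.78, 6.44, 6.97 and 6.94 in arp6-10 at 2 h, 7.30, 7.87, 7.29 and 7.04 in arp6-10 at 12 °C, 6.54 and 6.76 in Col-0 at 2 h, and 5.55 and 5.07 in Col-0 at 12 °C. The 2 genotypes overlapped at 2 h and were apart at 12 °C. The OBE1 gap was 0.13 ± 0.24 at 2 h (adjusted p = 0.776) and 2.07 ± 0.24 at 12 °C (adjusted p = 4.8e-05), and the difference of responses was -1.93 ± 0.34 (adjusted p = 0.039). AT1G31870, the Arabidopsis counterpart of the splicing factor BUD13, had 7.09, 7.11, 7.10 and 6.95 in arp6-10 at 2 h, 7.48, 7.47, 7.65 and 7.40 in arp6-10 at 12 °C, 6.65 and 6.75 in Col-0 at 2 h, and 5.26 and 5.64 in Col-0 at 12 °C. None of its 4 groups overlapped. The AT1G31870 difference was -1.68 ± 0.24 (adjusted p = 0.0277).

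**Figure D3:**
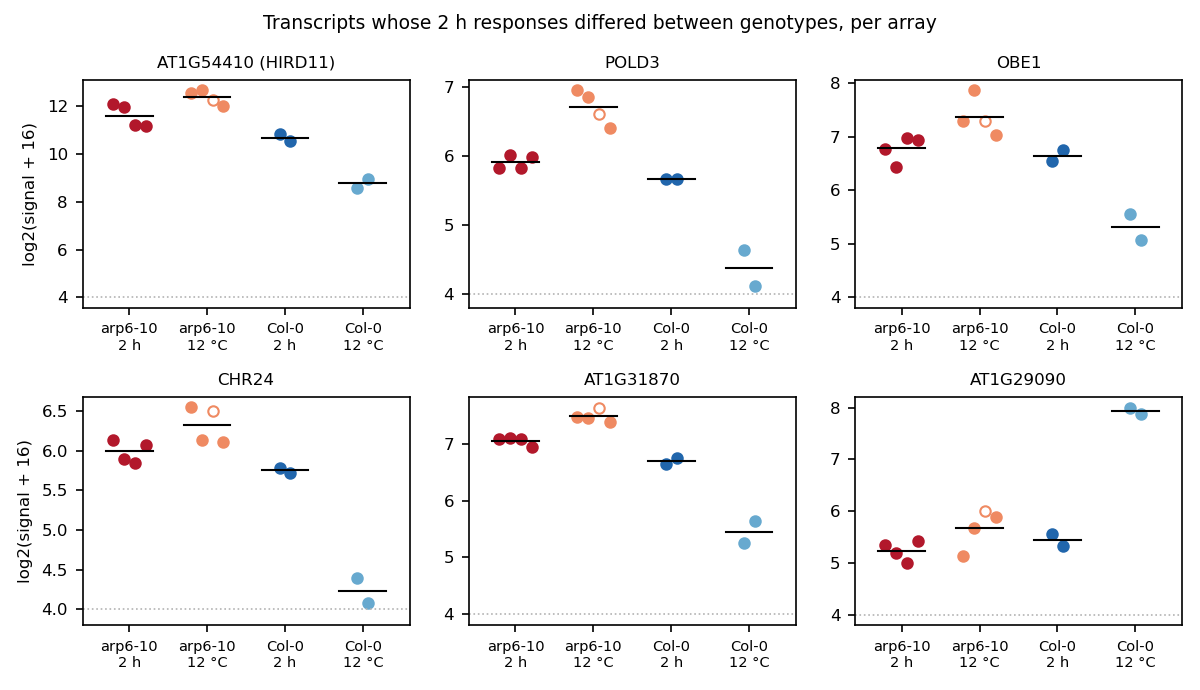
Level, log2(signal + 16), on the y axis for each array in 6 genes called on the 12 arrays, by group on the x axis; points are arrays, bars are group means, the open point is arp6-10 12 °C replicate 3 and the dotted line marks the floor of 4. Col-0 at 12 °C is the low group in 5 panels and the high group for AT1G29090.

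Genes for organelle proteins were among the rest. AT1G33360 encodes a mitochondrial ClpX, the unfolding ATPase of the Clp protease. Its difference of -1.90 ± 0.31 (adjusted p = 0.0382) held a Col-0 rise of 1.89 ± 0.25 and an arp6-10 response of -0.01 ± 0.18. Its mean level was 5.90 ± 0.21 in arp6-10 at 2 h and 5.91 ± 0.15 in arp6-10 at 12 °C (SD, n = 4 each), against 6.40 and 6.10 in Col-0 at 2 h and 4.34 and 4.38 in Col-0 at 12 °C. Within 2 h the Col-0 level had come up to that of arp6-10 or above it. AT1G12800, a chloroplast protein with an S1 RNA-binding domain, was expressed at 10.06 to 10.44 in arp6-10 at 2 h and 10.28 to 10.72 in arp6-10 at 12 °C, against 9.68 and 9.28 in Col-0 at 2 h and 7.74 and 8.25 in Col-0 at 12 °C. It lies far above the floor, and its difference was -1.74 ± 0.29 (adjusted p = 0.0382). Its gap stayed called at 2 h, at 0.78 ± 0.21 (adjusted p = 0.0321).

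The other named negative differences as labelled, AT1G12120, AT5G22450, AT1G60610, AT1G21740 and AT3G19515, ran from -2.18 to -1.76. Col-0 at 12 °C alone carried 4 of these, and the exception was AT3G19515, whose gap was 0.47 at 2 h and 2.23 at 12 °C and which fell by 0.71 ± 0.17 on the log2 scale in arp6-10 (adjusted p = 0.0307). AT5G22450 had the smallest gap of the group at 2 h, 0.00 ± 0.21, beside 2.18 ± 0.21 at 12 °C. Col-0 means at 12 °C were under 5 for AT1G60610 and AT1G21740, as for POLD3, CHR24 and AT1G33360. Over all settings the difference ran from -3.84 to -1.01 for POLD3, from -3.49 to -0.86 for AT1G33360, from -3.68 to -0.87 for AT1G60610 and from -3.51 to -0.85 for AT1G21740, the ends being set by the pseudocount.

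On the 11 arrays without replicate 3 of arp6-10 at 12 °C, the 151 called negative had a median difference of -1.42, with median responses of -0.20 in arp6-10 and 1.25 in Col-0. Their median gap was 0.38 at 2 h and 1.81 at 12 °C. Both Col-0 arrays of 12 °C lay below the other 9 for 144 of 151, against 13.1% of all tested, and 30 had a Col-0 mean under 5 there. The 3 arrays of arp6-10 at 12 °C lay above the other 8 for 39 of 151, against 6.06%. The response was called in 29 of the 151 in arp6-10 (15.6% of all tested) and in 141 in Col-0 (19.7%). The gap was called at 2 h in 59 of the 151, positive in 55 (9.48% of all tested) and negative in 4 (7.94%). At 12 °C it was called in 150 (37.7%, of which 20.1% positive and 17.7% negative). The values for the 151 come from the contrast that chose them and are given as a description.

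Among the 6 further genes named in this fit, rpl22, the plastid-encoded protein L22 of the chloroplast ribosome, was the brightest. It had 12.24, 12.63, 12.65 and 12.39 in arp6-10 at 2 h, 12.56, 12.30, 11.95 (the array left out) and 12.96 in arp6-10 at 12 °C, 11.52 and 11.17 in Col-0 at 2 h, and 9.51 and 9.60 in Col-0 at 12 °C. All arp6-10 arrays were above all Col-0 arrays, and the gap was 2.19-fold at 2 h and 8.30-fold at 12 °C. The rpl22 difference was -1.92 ± 0.26 (adjusted p = 0.00722). Of the 69 plastid-encoded genes tested, a set drawn up after values were seen, rpl22 was the only one called, 1 of 69 beside 1.19% of all tested, and the median difference over the 69 was 0.05. The sizes of the next 4 are rough, since their Col-0 means at 12 °C were under 5. AT1G55930 had a difference of -1.91 ± 0.38 (adjusted p = 0.0291) and was called in 6 of the 11 fits that leave out 1 further array. AT5G08010 had -1.85 ± 0.41 (adjusted p = 0.0409) and was called in 3 of these fits. Its 2 arrays of Col-0 at 12 °C read 4.13 and 5.42, and without the first of them the difference was -1.21. AT3G14200 had -2.15 ± 0.46 (adjusted p = 0.037) and was called in 1 of the 11. It read 4.28 and 5.71 in Col-0 at 12 °C, and without the first of these the difference was -1.43. AT5G23480 had -1.94 ± 0.43 (adjusted p = 0.0409) and was called in 1 of the 11.

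AT2G20550 differed from these in shape. Its levels were 5.09, 5.41, 4.57 and 5.31 in arp6-10 at 2 h, 5.68, 5.36, 5.49 (left out) and 5.56 in arp6-10 at 12 °C, 6.13 and 6.74 in Col-0 at 2 h, and 5.04 and 4.21 in Col-0 at 12 °C. Only the 2 arrays of Col-0 at 2 h stood clear of the rest, and 1 array of Col-0 at 12 °C was the lowest of all. No single group carried its difference of -2.25 ± 0.47 (adjusted p = 0.0319), and the gap changed sign, being -1.34 at 2 h and 0.91 at 12 °C. These sizes are rough too, since its Col-0 mean at 12 °C was under 5. Over all settings the AT2G20550 difference ran from -3.94 to -1.07. It was called in 4 of the 11 fits that leave out 1 further array.

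The arrays of 24 h, which took no part in the fits that made the calls, gave another view of the gap. They did enter the quantile normalization and the filter on mean level. For the 25 called negative the median gap at 24 h was 0.34 on all 6 arrays and 0.26 without replicate 2 of arp6-10 at 24 h, against 2.21 at 12 °C. It was above 0 in 20 of 25 and 21 of 25, against 49.6% and 49.1% of all tested. It was called in 0 and 1 of them (0.107% and 1.78% of all tested), with 4 and 5 at an unadjusted p under 0.05 (11.1% and 19.4% of all tested). Their median level in Col-0 at 24 h was 7.37, beside 6.93 at 2 h and 5.94 at 12 °C, and in arp6-10 at 24 h it was 7.48 without replicate 2. For the 151, the median gap at 24 h was 0.30 and 0.26, with 122 and 120 above 0 and 0 and 6 called, all 6 positive (1.06% of all tested), and with 24 and 42 at an unadjusted p under 0.05.

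Positive differences were fewer and had no common shape. The largest called one on the 12 arrays among named genes was that of AT1G29090, a papain-like cysteine protease. It had 5.34, 5.20, 4.99 and 5.42 in arp6-10 at 2 h, 5.13, 5.67, 6.01 and 5.89 in arp6-10 at 12 °C, 5.55 and 5.33 in Col-0 at 2 h, and 8.00 and 7.87 in Col-0 at 12 °C. Only Col-0 at 12 °C was high, and the other 3 groups overlapped. AT1G29090 fell by 2.49 ± 0.29 on the log2 scale in Col-0 (5.62-fold, adjusted p = 0.000677), against -0.43 ± 0.21 in arp6-10, a difference of 2.06 ± 0.36 (adjusted p = 0.039). AT4G32440 had a difference of 1.81 ± 0.33 (adjusted p = 0.0486), and its gap changed sign, being 0.81 ± 0.24 at 2 h. AT4G32440 had 6.01 to 6.27 in arp6-10 at 2 h and 5.22 to 6.10 in arp6-10 at 12 °C, against 5.36 and 5.23 in Col-0 at 2 h and 6.73 in both Col-0 arrays of 12 °C. The remaining called positive probe set is not paired with a single gene.

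The next 10 named genes with a positive difference, by unadjusted p on the 12 arrays, were not called, with adjusted p of 0.0573 to 0.0926 and differences of 0.92 to 2.07. They include BCAT4, the aminotransferase that starts methionine chain elongation for glucosinolates, which protect against herbivores. BCAT4 had 8.53, 8.14, 8.78 and 8.49 in arp6-10 at 2 h, 9.31, 9.15, 9.48 and 9.41 in arp6-10 at 12 °C, 8.06 and 8.33 in Col-0 at 2 h, and 10.63 and 10.13 in Col-0 at 12 °C. It fell in both genotypes, by 0.86 ± 0.17 on the log2 scale in arp6-10 (adjusted p = 0.0137) and by 2.18 ± 0.24 in Col-0 (adjusted p = 0.000462). The BCAT4 difference was 1.32 ± 0.29 as labelled (adjusted p = 0.0754) and 1.37 ± 0.28 without replicate 3 of arp6-10 at 12 °C (adjusted p = 0.0304). AT4G22470, AAE16, AT5G38820, AT3G51320, AT2G19280, AT4G22790, AT4G35870, AT2G39210 and AT2G40120 were the other 9, of which AT2G39210 (1.21 ± 0.24, adjusted p = 0.0296) and AT2G40120 (1.55 ± 0.35, adjusted p = 0.0414) were called without that array. AT2G40120 was 1 of the differences carried by Col-0 at 2 h, where it read 4.98 and 4.65, against 5.72 or more on every array of the other groups.

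On the 11 arrays a different kind of positive difference appeared, in which arp6-10 at 12 °C was the low group. All arrays of arp6-10 at 12 °C kept in this fit lay below the other 8 for 16 of the 38, against 6.36% of all tested, and both Col-0 arrays of 12 °C lay above the other 9 for 17 of the 38, against 12.5%. Both Col-0 arrays of 2 h lay below the other 9 for 11 of the 38, against 6.36%, and all 4 arp6-10 arrays of 2 h lay above the other 7 for 5 of the 38, against 2.09%. The median difference of the 38 was 1.39, with a median response of 0.64 in arp6-10 and -0.62 in Col-0. All of these values come from the contrast that chose the 38 and are given as a description. AT1G23390 encodes a kelch F-box protein that marks chalcone synthase, the entry enzyme of flavonoid synthesis, for breakdown. Its levels were 10.30, 10.83, 10.50 and 10.63 in arp6-10 at 2 h, 8.57, 8.25, 10.06 (left out) and 7.65 in arp6-10 at 12 °C, 11.61 and 11.56 in Col-0 at 2 h, and 10.51 and 11.25 in Col-0 at 12 °C. The array left out was the only one of its group that lay near the others. AT1G23390 rose 5.32-fold in arp6-10 (2.41 ± 0.21, adjusted p = 1.32e-06), and its Col-0 response was 0.71 ± 0.28 (adjusted p = 0.0849), a difference of 1.71 ± 0.35 (adjusted p = 0.0304). With replicate 3 included, it was 0.85 in the fit as labelled and not called (adjusted p = 0.638).

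EXPA8, an expansin that loosens cell walls, had arp6-10 at 12 °C as its low group too. It read 7.53, 7.84, 7.58 and 7.93 in arp6-10 at 2 h, 6.27, 5.58, 8.68 (left out) and 5.40 in arp6-10 at 12 °C, 8.20 and 7.92 in Col-0 at 2 h, and 7.85 and 7.55 in Col-0 at 12 °C. Again the array left out was unlike the rest of its group, and it was the highest of all 12. EXPA8 rose by 1.97 ± 0.20 in arp6-10 and had a response of 0.36 ± 0.26 in Col-0, with a difference of 1.61 ± 0.33 without replicate 3 (adjusted p = 0.0304) and 0.87 ± 0.88 with it (adjusted p = 0.677). AT5G14120 (1.55 ± 0.35, adjusted p = 0.0443) and AT5G11070 (0.91 ± 0.21, adjusted p = 0.0443) were also carried by arp6-10 at 12 °C. AT1G14890 (1.15 ± 0.25, adjusted p = 0.0404) moved in opposite directions, rising by 0.51 in arp6-10 and falling by 0.65 in Col-0, and no single group carried it. AT5G14120, AT5G11070, AT1G14890 and the earlier AT2G40120 were not called as labelled. Each of them was called in only 1 of the 11 fits that leave out 1 further array.

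AT5G03350, a legume-type lectin known to respond to salicylic acid, also moved in opposite directions. Its levels were 10.89, 10.85, 10.70 and 10.48 in arp6-10 at 2 h, 10.03, 10.07, 8.45 (left out) and 9.89 in arp6-10 at 12 °C, 9.49 and 9.42 in Col-0 at 2 h, and 10.20 and 9.90 in Col-0 at 12 °C. With the array left out, the genotypes overlapped at 12 °C and were apart at 2 h, by 1.27 ± 0.15. AT5G03350 rose by 0.73 ± 0.14 in arp6-10 (adjusted p = 0.00164) and fell by 0.60 on the log2 scale in Col-0 (adjusted p = 0.029), a difference of 1.33 ± 0.22 (adjusted p = 0.0176). Leaving out 1 further array in turn, 11 fits in all, kept the call in 9 for AT5G03350, in 10 for AT1G54410 and rpl22, and in 4 for AT1G23390 and for EXPA8.

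Gene lists for heat, cold, growth and other processes were drawn up with earlier results of these data known. Of 228 members, 69 had a probe set of their own and 63 were tested. As labelled 1 was called, POLD3, 1.59% of the 63 beside 0.176% of all tested. Without replicate 3 of arp6-10 at 12 °C 4 were called, 6.35% beside 1.19%: HSP17.6C-CI and EXPA8 with positive differences and COR15B and POLD3 with negative ones. The median difference over the 63 was 0.05 as labelled and -0.05 without that array, beside 0.01 and 0.02 over all tested.

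Most heat shock genes rose strongly in both genotypes. Without replicate 3 of arp6-10 at 12 °C, 7 of the 10 tested rose in arp6-10 (7.73% of all tested did) and 9 of 10 rose in Col-0 (10.2%). As labelled 7 rose in arp6-10 (2.48%) and 8 in Col-0 (4.45%). Their median response without that array was 2.92 in arp6-10 and 2.40 in Col-0. None of the 10 was called for a difference as labelled, with 3 at an unadjusted p under 0.05, and 1 was called without that array. The median difference was 0.04 as labelled and 0.46 without the array, with a range of -0.85 to 2.11 without it.

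The called gene, HSP17.6C-CI (AT1G53540), is a cytosolic class I small heat shock protein. It read 9.56, 9.33, 8.94 and 9.53 in arp6-10 at 2 h, 4.09, 5.29, 6.07 (left out) and 5.31 in arp6-10 at 12 °C, 6.95 and 7.34 in Col-0 at 2 h, and 5.25 and 4.37 in Col-0 at 12 °C. The genotypes overlapped at 12 °C, near the floor, and every arp6-10 array lay above both Col-0 arrays at 2 h. AT1G53540 rose by 4.44 ± 0.29 in arp6-10 (21.7-fold) and by 2.34 ± 0.37 in Col-0 (5.05-fold), a difference of 2.11 ± 0.47 without replicate 3 (adjusted p = 0.0409) and 1.81 ± 0.57 with it (adjusted p = 0.175). Because group means at 12 °C were 4.90 and 4.81, these folds are rough. It was called in 2 of the 11 further fits that leave out 1 array, with differences of 1.66 to 2.55.

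HSP17.6B-CI (AT2G29500), of the same class, was brighter at 12 °C and had the same direction without being called. It had 11.46, 11.41, 11.16 and 11.85 in arp6-10 at 2 h, 7.26, 6.54, 6.70 and 6.81 in arp6-10 at 12 °C, 10.10 and 9.73 in Col-0 at 2 h, and 6.60 and 6.37 in Col-0 at 12 °C. As for the first, the genotypes were apart at 2 h (gap 1.56, adjusted p = 0.00211) and overlapped at 12 °C. The AT2G29500 difference was 1.21 ± 0.33 as labelled (adjusted p = 0.116) and 1.17 ± 0.32 without replicate 3 of arp6-10 at 12 °C (adjusted p = 0.075). Over the 10 heat genes tested, 5 differences were above 0 and 5 below as labelled, and 6 and 4 without that array. AT5G37670 of this list went the other way, with -1.13 to -0.06 over the alternative settings as labelled and no call. It had 8.58 to 9.10 in arp6-10 at 2 h and 6.69 to 7.14 in arp6-10 at 12 °C. In Col-0 it had 8.06 and 7.98 at 2 h, and 5.02 and 6.09 at 12 °C.

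Hsp70-2, a cytosolic HSP70 chaperone, had a negative value. Its levels were 10.12, 9.89, 10.10 and 9.81 in arp6-10 at 2 h, 10.24, 10.23, 10.17 and 9.92 in arp6-10 at 12 °C, 9.33 and 9.25 in Col-0 at 2 h, and 8.61 and 8.58 in Col-0 at 12 °C. All arp6-10 arrays lay above all Col-0 arrays, and within arp6-10 the times overlapped. Hsp70-2 rose by 0.70 in Col-0 (adjusted p = 0.0384), and the difference of -0.86 ± 0.23 was not called (adjusted p = 0.119; 0.0675 without replicate 3). The mitochondrial HSP23.5 (AT5G51440) and the immunophilin ROF2 (AT5G48570) rose in both genotypes with differences of 0.56 ± 0.47 and 0.14 ± 0.82 as labelled, and 0.84 ± 0.34 and 0.78 ± 0.40 without replicate 3, none called. ROF2 read 7.17 on replicate 3, against 4.16 to 5.04 on the other arrays of arp6-10 at 12 °C.

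**Figure D4:**
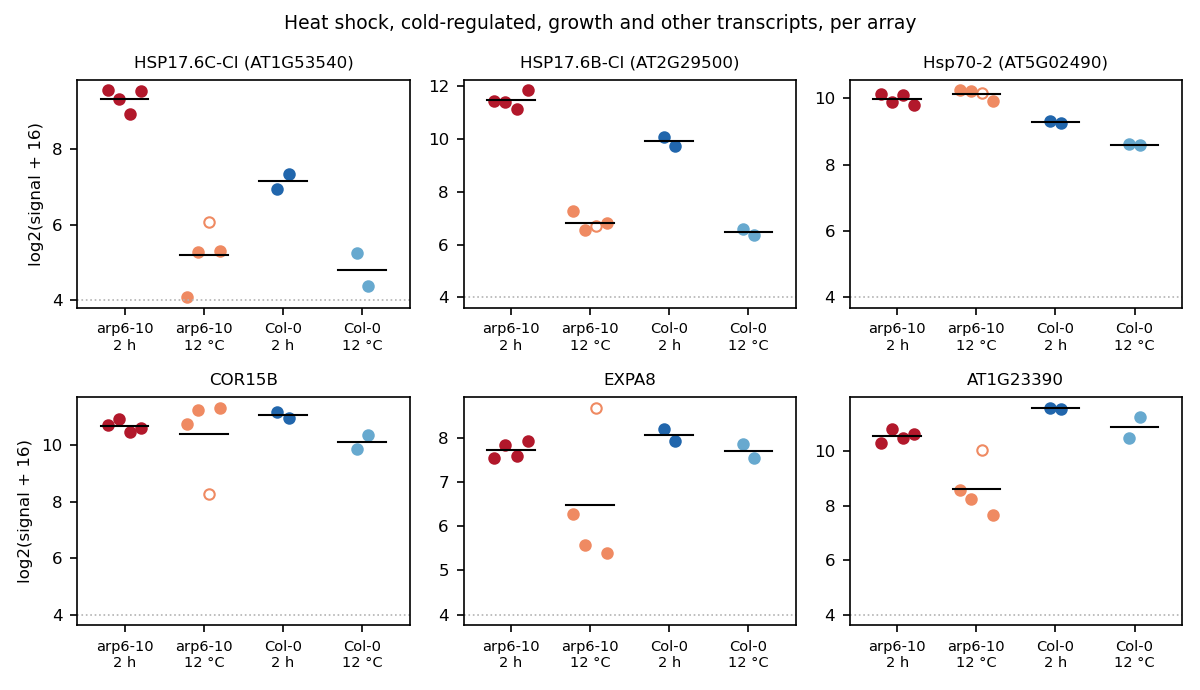
Level, log2(signal + 16), on the y axis for each array in 6 genes, by group on the x axis; points are arrays, bars are group means over all arrays, the open point is arp6-10 12 °C replicate 3 and the dotted line marks the floor of 4. The open point sits at 8.25 for COR15B, 8.68 for EXPA8 and 10.06 for AT1G23390, apart from the other arrays of its group.

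Among the cold-regulated genes, COR15B was called without that array and not with it. COR15B and COR15A, chloroplast proteins that shield membranes during freezing, had differences of -0.66 ± 0.85 and -0.37 ± 1.23 as labelled and of -1.37 ± 0.28 (adjusted p = 0.0304) and -1.40 ± 0.40 (adjusted p = 0.0903) without it. COR15B read 10.72, 10.93, 10.47 and 10.60 in arp6-10 at 2 h, 10.73, 11.22, 8.25 (left out) and 11.32 in arp6-10 at 12 °C, 11.18 and 10.94 in Col-0 at 2 h, and 9.84 and 10.35 in Col-0 at 12 °C. Col-0 at 12 °C was then below all other arrays. COR15B was called in 5 of the 11 fits that leave out 1 further array. COR15B rose by 0.96 ± 0.22 in Col-0 (adjusted p = 0.00784), and its arp6-10 response was -0.41 (adjusted p = 0.119). Over the 5 cold genes tested, which include COR47, LTI30 and STZ, the median difference was -0.37 as labelled and -0.94 without the array.

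The 7 anthocyanin and flavonoid genes tested fell in both genotypes once replicate 3 of arp6-10 at 12 °C was left out, 7 of 7 in arp6-10 (7.89% of all tested did) and 7 of 7 in Col-0 (9.48%). DFR, the reductase that leads to anthocyanins, had levels of 8.57, 8.09, 8.17 and 8.24 in arp6-10 at 2 h, 11.84, 11.64, 6.79 (left out) and 11.64 in arp6-10 at 12 °C, 6.79 and 7.38 in Col-0 at 2 h, and 10.87 and 10.49 in Col-0 at 12 °C. The left-out array held the level of warm Col-0 seedlings. As labelled 4 of the 7 fell in arp6-10 (2.36%) and 5 in Col-0 (3.99%). DFR fell by 3.44 on the log2 scale in arp6-10 and by 3.59 in Col-0 without that array. As labelled all 7 differences were above 0, with a median of 0.51 and none called (0 at an unadjusted p under 0.05). Without the array 4 were above 0 and 3 below, with a median of 0.08, and again none was called at either threshold. The interval of the DFR difference, 0.15 ± 0.28 (SE), covers differences of either sign.

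In the list for growth and auxin, EXLA1, an expansin-like protein, had a value opposite to that of EXPA8, -1.34 ± 0.68 as labelled and -0.79 ± 0.28 without replicate 3, with neither called (adjusted p = 0.382 and 0.168). WES1 and GH3.3, which conjugate auxin to amino acids, had 0.70 and -0.18 without replicate 3. Among 6 genes of ribosome biogenesis none was called, with 2 at an unadjusted p under 0.05 in either fit. NOP58B (AT3G05060), a core protein of box C/D ribonucleoproteins, stood at 8.86 to 9.09 in arp6-10 at 2 h and 9.61 to 10.13 in arp6-10 at 12 °C, against 7.49 and 7.29 in Col-0 at 2 h and 7.68 and 7.25 in Col-0 at 12 °C. It fell by 0.97 on the log2 scale in arp6-10 (adjusted p = 0.00411), while the Col-0 response was -0.07, and the difference of -0.90 ± 0.27 was not called (adjusted p = 0.157).

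The one SWR1 gene tested, SWC2, had a difference of -0.82 ± 0.37 (adjusted p = 0.336) with 5.73 to 6.52 in arp6-10 at 2 h and 6.13 to 6.61 in arp6-10 at 12 °C, against 4.73 and 5.02 in Col-0 at 2 h and 4.30 and 4.46 in Col-0 at 12 °C. Every SWC2 value of arp6-10 lay above every one of Col-0, whose means were under 5. PDF1.2, a plant defensin induced by jasmonate, had a difference of 1.18 ± 0.34 (adjusted p = 0.142), with 7.62 and 7.58 in Col-0 at 12 °C above every other array. Of 11 CC-type glutaredoxins none was called, with 2 at an unadjusted p under 0.05, and 7 were lower in arp6-10 than in Col-0 at 2 h and 7 at 12 °C (3.97% and 14.9% of all tested were). The median difference of the glutaredoxins was 0.38 as labelled and 0.35 without replicate 3. The 3 endoplasmic reticulum genes, the 5 photosynthesis genes and the clock gene GI had no call. Their median differences were 0.34, -0.42 and -0.34 as labelled, and 0.26, -0.23 and -0.32 without replicate 3 of arp6-10 at 12 °C. All 5 photosynthesis genes were below 0 as labelled and 4 of 5 without that array.

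**Figure D5:**
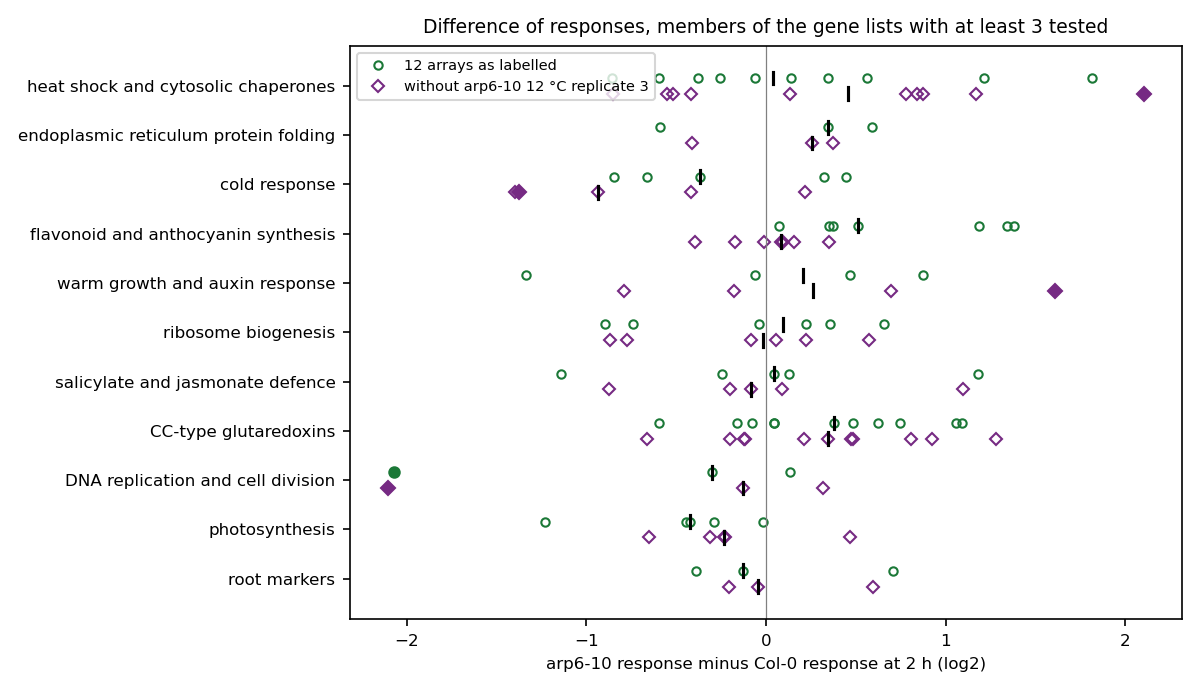
Difference of responses (arp6-10 response minus Col-0 response, log2) on the x axis for each tested member of the lists with at least 3 tested, by list on the y axis; circles are the 12 arrays as labelled, diamonds leave out arp6-10 12 °C replicate 3, filled symbols are called and black bars are list medians. Flavonoid members move from a median of 0.51 to 0.08 and cold members from -0.37 to -0.94 when that array is left out.

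The called negative probe sets came from genes whose median span was above that of all tested. The median gene span, introns included, was 3557 bp for the 17 of 25 paired with 1 gene and 2810 bp for the 91 of 151, beside 2305 bp over all tested genes. With all tested genes split by span into 4 bins of about equal size, the median difference of responses was 0.15, 0.06, -0.01 and -0.12 in order of increasing span, and the median gap at 12 °C was -0.33, -0.13, 0.07 and 0.22. On the 11 arrays the bins held 9, 14, 33 and 35 called negative genes, 0.416%, 0.648%, 1.53% and 1.62% of each. The ratio of 3′ to 5′ GAPDH control signal, a sign of RNA integrity, was 1.47 to 3.09 in arp6-10 at 2 h, 1.47 to 5.51 in arp6-10 at 12 °C, 2.58 and 6.78 in Col-0 at 2 h, and 3.07 and 1.99 in Col-0 at 12 °C. For actin the ratio was far higher on every array. In the same order of groups it was 26.05 to 45.59, 29.69 to 51.51, 34.86 and 46.72, and 27.75 and 24.75. For ubiquitin it was 3.2 to 4.0, 2.1 to 5.4, 3.4 and 4.0, and 3.1 and 3.5. The mean signal of the hybridization controls was 2036 to 2438 in arp6-10 at 2 h, 2024 to 2426 in arp6-10 at 12 °C, 2960 and 4230 in Col-0 at 2 h, and 2910 and 2823 in Col-0 at 12 °C, so it was higher on every Col-0 array. The part of these measures in the result was not tested.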

How the data were processed

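Each of the 18 samples was 1 Affymetrix array of whole seedlings, from 1 µg of total RNA labelled with biotin per the labels' protocols. Values are the authors' deposited probe set intensities on a linear scale, and per the submitters' processing notes GCOS was used. Its release, and how it summarised probes, are not stated in what was used here. No count underlies an intensity, so the number of arrays limits the precision. Of 22810 rows, 64 Affymetrix controls served only to describe arrays.

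Here log2(intensity + 16) was quantile normalized over the 18 arrays (limma 3.58.1, R 4.3.3). Dropping the 30% of probe sets with the lowest mean level left 15922 to test. Group means of the 12 arrays were fitted with lmFit and eBayes with a trend (two-sided, 8 residual degrees of freedom), and again on 11 arrays (7). The 24 h gap was a separate fit of those arrays, added after values were seen. The fit was tested on simulated data. Alternatives changed the normalization, pseudocount, filter, variance trend, arrays, weights and pairing.

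Names came from the platform annotation, brought up to date with RefSeq (TAIR10.1). A single gene is given for 13513 probe sets, while 503 that match several and 8730 that are not listed stay unnamed. 13436 of the 13513 matched RefSeq, and 8745 of the 13513 were tested. Named genes are the 12 largest called differences of each sign in each fit, filled to 12 by smallest p, plus list members, with the brightest probe set used for the 68 tested genes that have several. Members and lists were chosen with earlier results of these data known. Promoter sequences were not used here.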

Additional observations from a re-analysis of the deposited data

Results flagged for a closer look

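Among 37 named genes and 6 array measures, each examined in the 2 groups of 4 arrays, 5 of 86 sets held 1 array far from the other 3. Chance gives about 1 in 20 for independent sets picked without their values. The genes were named from these same arrays and share them, so that rate is only a rough guide. Replicate 3 of arp6-10 at 12 °C lay at 0.956 on the axis from cool to 24 h warm arp6-10, against 0.0799 to 0.143 for the others of its group, and read 8.45 for AT5G03350, against 9.89 to 10.07. AT5G03350 was named only in the fit without that replicate, so its outlier is partly built in. In arp6-10 at 2 h, AT1G12120 read 7.98 on replicate 1 (8.36 to 8.41 on the others), AT3G19515 read 7.78 on replicate 4 (7.97 to 7.98), and AT1G31870 read 6.95 on replicate 4 (7.09 to 7.11).

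Genes were mostly named because the test of the difference called them, so the list below is not a further result. Many of its calls were lost when 1 more array was left out. That test called 30 named genes. On the 12 arrays these were AT1G29090 (2.06) and AT4G32440 (1.81), and, on the negative side, AT1G54410 (-2.69), AT1G12120 (-2.18), AT5G22450 (-2.17), POLD3 (-2.07), AT1G60610 (-1.94), OBE1 (-1.93), AT1G33360 (-1.90), AT1G21740 (-1.88), CHR24 (-1.85), AT3G19515 (-1.76), AT1G12800 (-1.74) and AT1G31870 (-1.68). Without replicate 3 of arp6-10 at 12 °C the further positive ones were AT1G53540 (2.11), AT1G23390 (1.71), EXPA8 (1.61), AT2G40120 (1.55), AT5G14120 (1.55), BCAT4 (1.37), AT5G03350 (1.33), AT2G39210 (1.21), AT1G14890 (1.15) and AT5G11070 (0.91). The further negative ones were AT2G20550 (-2.25), AT3G14200 (-2.15), AT5G23480 (-1.94), rpl22 (-1.92), AT1G55930 (-1.91) and AT5G08010 (-1.85).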

How the results depend on the processing

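The 28 calls as labelled (3 positive, 25 negative) became 70 (6 and 64) on the values as deposited, 9 (2 and 7) with a pseudocount of 64, 103 (14 and 89) with a pseudocount of 1, 13 (0 and 13) with the filter at the 50th percentile, 94 (13 and 81) with all 18 arrays in 6 groups, 154 (24 and 130) with 6 groups and no replicate 2 of arp6-10 at 24 h, and 100 (14 and 86) with array weights, where replicate 3 of arp6-10 at 12 °C had a weight of 0.248. Quantile normalization over the fitted arrays, no filter and no trend gave 28, 21 and 30. Leaving out 1 array in turn gave 0 to 189 calls (0 to 38 positive, 0 to 151 negative). The 189 calls without replicate 3 (38 and 151) became 276 (52 and 224) on the values as deposited, 139 (41 and 98) and 237 (52 and 185) with pseudocounts of 64 and 1, 55 (13 and 42) with no filter, 118 (24 and 94) with no trend, 56 (6 and 50) in 6 groups, 330 (85 and 245) in 6 groups without replicate 2 of arp6-10 at 24 h, and 50 (8 and 42) with array weights. Leaving out 1 further array gave 2 to 325 calls (2 to 52 positive, 0 to 274 negative): 2 without replicate 1 and 120 without replicate 2 of Col-0 at 2 h, 44 and 325 without replicate 1 or 2 of Col-0 at 12 °C, 64 and 25 without replicate 1 or 2 of arp6-10 at 12 °C, and 93, 39 and 80 without replicate 2, 3 or 4 of arp6-10 at 2 h. The cause of these changes was not tested. No call in either fit changed sign in any setting where its probe set was tested. The settings share most or all of the arrays that made the calls, so this is not separate support.

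With the replicate number as a block the calls were 1 (0 positive, 1 negative) as labelled and 134 (33 and 101) without replicate 3. Between arp6-10 at 2 h and arp6-10 at 12 °C the deviations of same-numbered arrays correlated at -0.0896, -0.00478, -0.161 and 0.235. The numbers were therefore not taken to pair samples. Replicates 3 and 4 of arp6-10 at 2 h correlated at 0.396 and 0.235 with replicate 4 at 12 °C, and replicates 1 and 2 at -0.305 and -0.373. The Col-0 value of -0.0972 cannot decide, since with 2 arrays in a group the other pairs differ from it only in sign. Whether replicates 1 and 2 differ from 3 and 4 as batches was not tested, and Col-0 has only replicates 1 and 2. With 2 arrays in each Col-0 group, 1 array left out leaves a lone array that is assumed to vary like the other groups.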
